A study of Homo sapiens with 12 samples.

Results

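The BCL2 family genes described here are 10 genes chosen by symbol: the pro-survival members BCL2, BCL2L1, BCL2A1 and MCL1, the pore-forming effectors BAX and BAK1, and the BH3-only members BID, BCL2L11, BBC3 and PMAIP1. By the platform annotation 22 of the 47302 probes on the array read these genes. Of these, 18 were among the 22207 probes that entered the tests (detected on both arrays of some group), and they covered all 10 genes. The cells were LM, a lung-metastatic subline of the human breast cancer line MDA-MB-231. In the BHLHE40-KD groups, LM cells stably carried a hairpin (TRCN0000232187) against BHLHE40, a transcriptional regulator of the basic helix-loop-helix class. In the LM-EV groups they carried the control vector. Each line was untreated (0 h) or kept in hypoxia (1% O2) for 6 h or 48 h, and RNA of each of the 6 groups was hybridized to 2 Illumina HT-12 bead arrays. The sample labels add low glucose to the hypoxia groups, a condition that the cell culture methods put at 1 mg/ml. The methods of the microarray experiment give 1% O2 alone for these arrays. Both lines grew in medium with puromycin. There was 1 knockdown line with 1 hairpin and 1 control line, so that all differences between them are differences between those lines, and each of 2 slides carried every group once. In bulk RNA, a smaller share of cells with a transcript and less transcript in each cell cannot be told apart.

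BCL2 proteins decide whether the outer mitochondrial membrane stays intact when a cell is stressed. Pro-survival members bind and hold BAX and BAK1, which otherwise assemble into pores that release cytochrome c and start the caspase cascade. BH3-only proteins carry the signal: BCL2L11 (BIM), BID and BBC3 (PUMA) bind the pro-survival members broadly and can activate the effectors, while PMAIP1 (NOXA) mainly engages MCL1 and BCL2A1. MCL1 and PMAIP1 are short-lived proteins, and much of the regulation of the family lies after transcription, which mRNA arrays do not read.

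BHLHE40 binds the E-box CACGTG, and hypoxia-inducible factors bind response elements with the core ACGTG or, in its G form, GCGTG. The 250 bases before the annotated transcription start (RefSeq, GRCh38.p14) were therefore searched for these letters on both strands, for the 9 member genes that have a start in the table (14 starts). The sequences below are shown because they hold E-boxes (BAX, BBC3 and the first of 5 starts of BID) or belong to the genes that were lower in BHLHE40-KD cells (BCL2 and PMAIP1). Each runs 5′ to 3′ on the strand of its gene and ends at the base before the start, and capitals mark these motifs on either strand.
BAX, chr19:48954625-48954874, + strand: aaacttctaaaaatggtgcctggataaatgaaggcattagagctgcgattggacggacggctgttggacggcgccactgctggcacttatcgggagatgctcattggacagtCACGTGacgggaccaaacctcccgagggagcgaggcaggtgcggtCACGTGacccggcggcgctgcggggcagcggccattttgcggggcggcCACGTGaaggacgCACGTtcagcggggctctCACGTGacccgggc
BBC3, chr19:47232668-47232917, - strand: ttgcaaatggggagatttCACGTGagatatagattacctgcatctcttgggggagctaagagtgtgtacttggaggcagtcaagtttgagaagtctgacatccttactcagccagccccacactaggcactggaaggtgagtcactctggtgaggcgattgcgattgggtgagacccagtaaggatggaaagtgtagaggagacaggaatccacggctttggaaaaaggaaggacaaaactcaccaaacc
BID, chr22:17773984-17774233, - strand: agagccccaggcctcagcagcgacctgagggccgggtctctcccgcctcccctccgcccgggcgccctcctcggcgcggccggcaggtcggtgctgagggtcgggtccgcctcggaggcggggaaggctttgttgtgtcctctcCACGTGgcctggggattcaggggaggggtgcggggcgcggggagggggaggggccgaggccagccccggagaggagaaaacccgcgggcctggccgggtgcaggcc
BCL2, chr18:63319770-63320019, - strand: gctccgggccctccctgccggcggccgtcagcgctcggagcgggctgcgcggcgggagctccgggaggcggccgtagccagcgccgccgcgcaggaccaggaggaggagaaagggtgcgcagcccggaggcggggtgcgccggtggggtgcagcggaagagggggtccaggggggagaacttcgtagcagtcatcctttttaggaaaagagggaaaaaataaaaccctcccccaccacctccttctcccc
PMAIP1, chr18:59899746-59899995, + strand: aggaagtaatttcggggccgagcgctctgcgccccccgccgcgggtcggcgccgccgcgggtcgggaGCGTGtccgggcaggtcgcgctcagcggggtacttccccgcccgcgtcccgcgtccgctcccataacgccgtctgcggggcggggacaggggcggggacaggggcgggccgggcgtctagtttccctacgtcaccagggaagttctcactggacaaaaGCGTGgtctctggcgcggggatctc

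The BAX sequence held 4 copies of CACGTG, beginning at positions -138, -93, -45 and -14, where -1 is the base before the start. A further match of ACGTG, outside the E-boxes, began at -32. BBC3 held 1 E-box at -232, and BID held 1, at -106 from the first of its 5 starts. The window of the next BID start overlaps and shows the same E-box at -47. E-boxes stood in 6.34% of all 35116 starts in the table. The core ACGTG, which every CACGTG contains, stood in 18.5% of them and GCGTG in 32.2%. Of the 14 member starts, 4 held an E-box, 4 held ACGTG and 5 held GCGTG, each count including 2 overlapping windows of BID. GCGTG was found in 4 of the 9 member genes: at -183 and -25 in PMAIP1, at -218 and -146 in BCL2L11, once before 1 start of BCL2L1, and at 1 place of BID that lies in the windows of 2 starts. No match was found in these windows of BCL2, BCL2A1 or BAK1. The map of motif matches shows the positions, which are matches of letters and not measured binding sites.

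**Figure D1:**
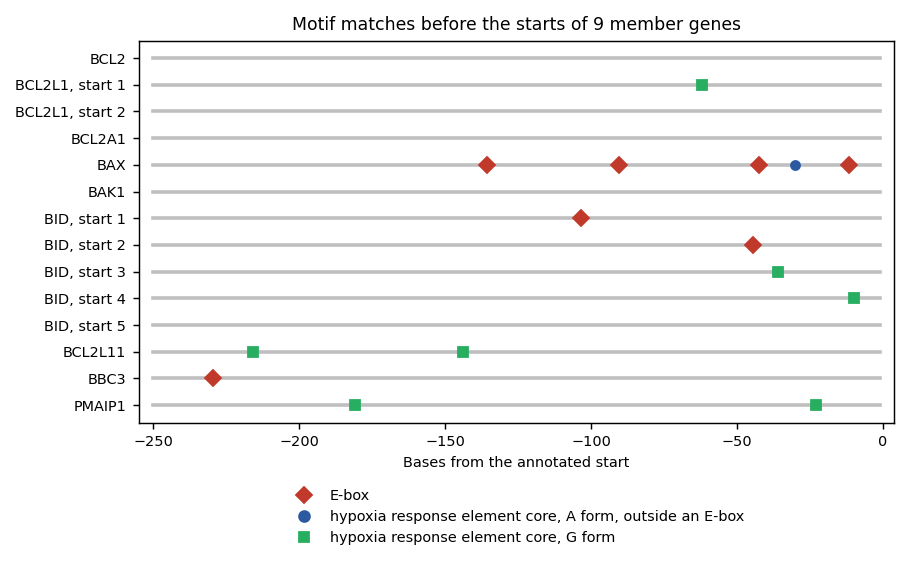
Matches of 3 short motifs in the 250 bases before each of 14 annotated starts of 9 member genes, plotted by distance from the start in bases. Diamonds are E-boxes, circles the A form of the hypoxia response element core outside E-boxes and squares its G form, and BAX carries 4 of the diamonds on its line. Both BID diamonds are 1 E-box in overlapping windows, as are both BID squares.

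The targeted gene was read by 1 probe. BHLHE40 had signals of 1771 and 1444 in BHLHE40-KD cells at 0 h, against 2992 and 2716 in LM-EV cells. After 6 h it had 3410 and 4324 in BHLHE40-KD cells, against 4283 and 6795 in LM-EV cells. At 48 h it had 3198 and 3585 in BHLHE40-KD cells, against 3365 and 6482 in LM-EV cells. BHLHE40 was thus lower in BHLHE40-KD cells in all 6 comparisons of arrays from 1 slide and 1 time, but the log2 differences of -0.83 (0 h, SE 0.30, adjusted p = 0.116), -0.49 (6 h, adjusted p = 0.324) and -0.46 (48 h, adjusted p = 0.365) did not pass the threshold. All signals are background-subtracted and quantile-normalized intensities with no unit. Differences are on the log2 scale after values below 16 were set to 16, they come from 1 limma fit over all detected probes with the slide as a block, and p values are adjusted over all of these probes within a comparison, with a threshold of 0.05. The arrays detected 20298 to 21830 probes each, and the lowest detected signal was 42.2 to 51.8. Of the markers listed for the cell type, all 5 mesenchymal ones (VIM, CD44, CAV1, AXL, MSN) were detected on all 12 arrays. Of 6 luminal markers FOXA1 and ERBB3 were on all 12, PGR on none, ESR1 on 1, CDH1 on 2 and GATA3 on 11. Of 4 leukocyte markers, CD14 was detected on all 12 arrays and CD3E on none, and of 3 endothelial markers, PECAM1 on all 12 and CDH5 and CLDN5 on none. Correlations between probes of 1 gene are given below over the 12 slide-centred arrays as descriptions.

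Between the lines, 7 of the 18 member probes passed at 1 or more of the 3 times, against 20.7% of all tested probes: both main BCL2 probes and both PMAIP1 probes, which were lower in BHLHE40-KD cells, and both MCL1 probes and 1 BCL2L1 probe, which were higher. At 0 h, 4 of the 18 passed, all lower in BHLHE40-KD cells, against 12.6% of all tested probes, 6.62% lower. At 6 h, 5 passed, 3 higher and 2 lower, against 13.4% (6.21% higher and 7.21% lower). At 48 h, 1 passed and was higher, against 11.3% (5.3% higher). An unadjusted p under 0.05 at 48 h was found for 7 of the 18 and for 6180 of the 22207 tested probes. The median log2 difference over the 18 member probes was 0.09 at 0 h, 0.19 at 6 h and 0.12 at 48 h, beside 0.002, 0.009 and 0.01 over all tested probes.

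**Figure D2:**
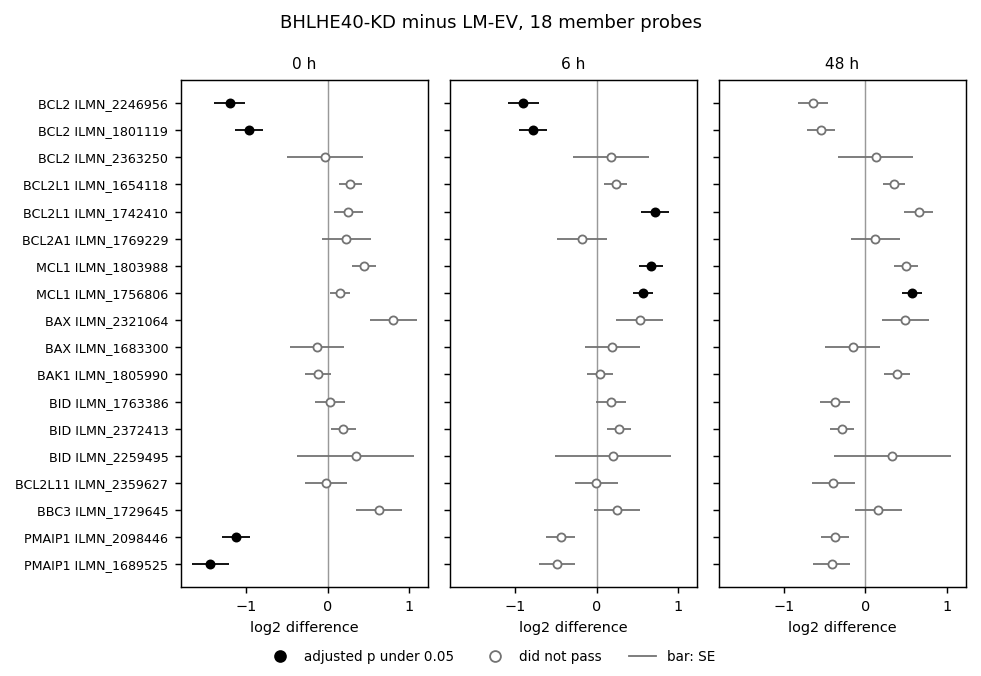
Difference between BHLHE40-KD and LM-EV cells (log2, x axis) for the 18 tested member probes (rows) at 0 h, 6 h and 48 h (panels), with bars of 1 SE and filled points for an adjusted p under 0.05. The main BCL2 probes lie left of 0 at all 3 times (-1.21 and -0.97 at 0 h), and PMAIP1 ILMN_1689525 lies farthest left at 0 h (-1.44).

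BCL2, the founding pro-survival member, was lower in BHLHE40-KD cells at 0 h and 6 h. Probe ILMN_2246956 (transcript NM_000633) had 544 and 498 in BHLHE40-KD cells at 0 h, against 1388 and 1039 in LM-EV cells. The 6 h arrays had 514 and 676 in BHLHE40-KD cells, against 1161 and 1046 in LM-EV cells. At 48 h it had 689 and 635 in BHLHE40-KD cells, against 1040 and 1031 in LM-EV cells. Every BHLHE40-KD array therefore lay below every LM-EV array, also across times. The log2 difference was -1.21 (0 h, SE 0.19, adjusted p = 0.0102; -1.35 and -1.06 on slides 1 and 2) and -0.90 (6 h, adjusted p = 0.0251; -1.18 and -0.63). At 48 h it was -0.65 (adjusted p = 0.0723), which did not pass.

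A second probe of the same BCL2 transcript, ILMN_1801119, gave the same order of the lines. It had 378 and 387 in BHLHE40-KD cells at 0 h, against 771 and 726 in LM-EV cells. At 6 h it had 363 and 450 in BHLHE40-KD cells, against 687 and 705 in LM-EV cells, and at 48 h 478 and 430 in BHLHE40-KD cells, against 754 and 580 in LM-EV cells. Again no BHLHE40-KD array reached the lowest LM-EV array. The log2 difference was -0.97 (0 h, SE 0.17, adjusted p = 0.0152), -0.78 (6 h, adjusted p = 0.0288) and -0.54 (48 h, adjusted p = 0.0890), which did not pass. Across the 12 arrays both probes moved together (r = 0.967). Without either LM-EV 0 h array, or either BHLHE40-KD 0 h array, ILMN_1801119 did not pass at 0 h (adjusted p up to 0.0931), and ILMN_2246956 did not without LM-EV 0 h replicate 1 or BHLHE40-KD 0 h replicate 2 (up to 0.0709). At 6 h both BCL2 probes lost the call without LM-EV 6 h replicate 1 or 2 or BHLHE40-KD 6 h replicate 1, and ILMN_1801119 also without LM-EV 0 h replicate 1 or 2 (up to 0.130 and 0.146), while with no filter on dim probes they had adjusted p = 0.0646 and 0.0633.

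The other BCL2 probes read transcript NM_000657. Of these ILMN_2363250 was detected on 7 arrays, with signals between 14.5 and 64.2. In BHLHE40-KD cells it was detected on both arrays at 0 h and at 6 h and on none at 48 h. In LM-EV cells it was detected on both arrays at 0 h, on 1 at 6 h and on none at 48 h. Its log2 differences between the lines were -0.03, 0.18 and 0.12 (SE 0.47 each), and no comparison of it passed. It did not follow the other BCL2 probes (r = -0.08 and -0.16). ILMN_1701120 was detected on no array and was not tested.

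MCL1, a short-lived pro-survival protein that also holds BAK1, was higher in BHLHE40-KD cells at 6 h by both of its probes and at 48 h by 1 of them, and by the other it rose with hypoxia in these cells. Probe ILMN_1803988 had 4560 and 6099 in BHLHE40-KD cells at 0 h, 12574 and 12938 at 6 h and 10570 and 10180 at 48 h. The LM-EV arrays had 3698 and 4058 at 0 h, 7206 and 8943 at 6 h and 6970 and 7670 at 48 h. At every time both BHLHE40-KD arrays lay above both LM-EV arrays, and in either line every hypoxia array lay above every untreated array of that line. The order of the group means was BHLHE40-KD 6 h, BHLHE40-KD 48 h, LM-EV 6 h, LM-EV 48 h, BHLHE40-KD 0 h and LM-EV 0 h, with overlapping arrays only between LM-EV 6 h and LM-EV 48 h.

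The log2 difference of ILMN_1803988 between the lines passed at 6 h (0.67, SE 0.15, adjusted p = 0.0297; 0.80 and 0.53 on slides 1 and 2). It was 0.45 (0 h, adjusted p = 0.0968) and 0.50 (48 h, adjusted p = 0.0725), which did not pass. The difference of MCL1 at 6 h did not pass without the slide as a block (adjusted p = 0.0574). It also did not pass without any 1 of the 4 arrays at 6 h, or without any 1 LM-EV array at 0 h or 48 h (adjusted p up to 0.163).

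The second MCL1 probe, ILMN_1756806, had 631 and 741 in BHLHE40-KD cells at 0 h, 811 and 891 at 6 h and 1063 and 1018 at 48 h. LM-EV cells had 577 and 660 at 0 h, 538 and 607 at 6 h and 668 and 725 at 48 h. The lines overlapped at 0 h and separated at both hypoxia times. The log2 difference was 0.57 (6 h, SE 0.12, adjusted p = 0.0268), and 0.58 (48 h, with adjusted p = 0.0285), and was 0.15 at 0 h (adjusted p = 0.483), which did not pass. The calls at 6 h and 48 h were both lost without the slide as a block (adjusted p = 0.0552 and 0.0593). At 6 h the call was lost without any 1 array of that time or an untreated LM-EV array (up to 0.139), and at 48 h without any 1 array of that time or any 1 LM-EV array (up to 0.142).

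BCL2L1 encodes BCL-XL, which like BCL2 holds effectors and BH3-only proteins at the mitochondrion. Probe ILMN_1742410 had 3581 and 4404 in BHLHE40-KD cells at 0 h, against 3381 and 3275 in LM-EV cells. After 6 h it had 4585 and 4009 in BHLHE40-KD cells, against 2883 and 2346 in LM-EV cells. At 48 h it had 4957 and 3888 in BHLHE40-KD cells, against 3072 and 2529 in LM-EV cells. All 6 BHLHE40-KD arrays lay above all 6 LM-EV arrays. The log2 difference passed at 6 h (0.72, SE 0.18, adjusted p = 0.0405) and was 0.26 (0 h, adjusted p = 0.401) and 0.66 (48 h, adjusted p = 0.0588). The call at 6 h was lost without the slide as a block (adjusted p = 0.0590), with no filter on dim probes (0.0880) and without any 1 array other than BHLHE40-KD 0 h replicate 1 or 2 (up to 0.197).

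The other BCL2L1 probe, ILMN_1654118, had 37014 to 57856 over the 12 arrays, a 1.56-fold span. It had 49899 and 52371 in BHLHE40-KD cells at 0 h, against 42607 and 41600 in LM-EV cells. The 6 h arrays had 43011 and 47199 in BHLHE40-KD cells, against 39575 and 37014 in LM-EV cells, and at 48 h 57856 and 48222 in BHLHE40-KD cells, against 44009 and 38991 in LM-EV cells. Both BHLHE40-KD arrays lay above both LM-EV arrays at each time, by a log2 difference of 0.28, 0.24 and 0.35 (SE 0.14 each, adjusted p = 0.237, 0.308 and 0.153), and none passed. The BCL2L1 probes had r = 0.838.

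BCL2A1, a pro-survival member induced by NF-kB in blood cells, had 206 and 345 in BHLHE40-KD cells at 0 h, 308 and 692 at 6 h and 269 and 804 at 48 h. In LM-EV cells it had 204 and 253 at 0 h, 339 and 803 at 6 h and 356 and 514 at 48 h. On every array pair the slide 2 value was the higher one, and the lines overlapped at each time (log2 differences of 0.23, -0.18 and 0.12, SE 0.30). On all 8 within-slide comparisons the hypoxia array lay above the untreated array of its line. The log2 change was 0.79 at 6 h and 0.80 at 48 h in BHLHE40-KD cells, and 1.20 and 0.91 in LM-EV cells, and none of these 4 changes passed (adjusted p of 0.148 to 0.226).

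**Figure D3:**
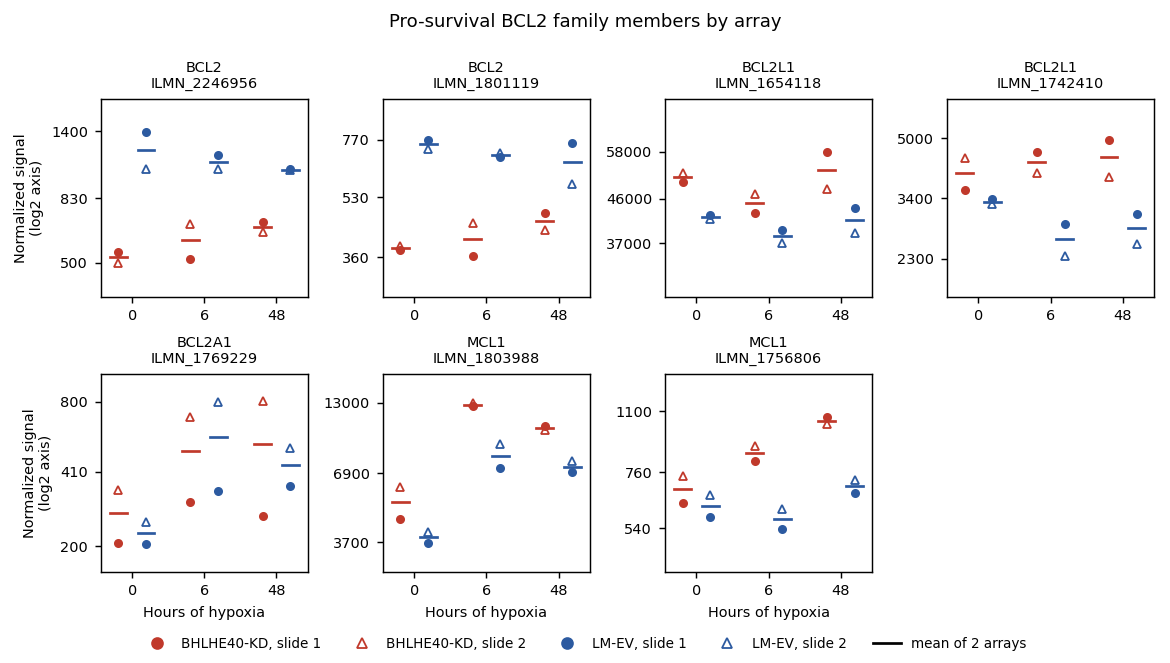
Normalized signal (log2 axis, a scale of its own in each panel) of the pro-survival member probes detected on all 12 arrays, by hours of hypoxia, with BHLHE40-KD in red left of LM-EV in blue. Filled circles are slide 1, open triangles slide 2 and lines the mean of 2 arrays, and for BCL2 every BHLHE40-KD array (498 to 689 for ILMN_2246956) lies below every LM-EV array (1031 to 1388).

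No probe of the effectors passed between the lines. BAX, which moves from the cytosol to mitochondria when activated, was read by ILMN_2321064 with 3480 and 7725 in BHLHE40-KD cells at 0 h, against 2880 and 3037 in LM-EV cells. At 6 h it had 4927 and 4350 in BHLHE40-KD cells, against 3025 and 3374 in LM-EV cells. At 48 h it had 3773 and 4325 in BHLHE40-KD cells, against 2720 and 3034 in LM-EV cells. All BHLHE40-KD arrays lay above all LM-EV arrays, and BHLHE40-KD 0 h replicate 2 was the highest of the 12. The log2 differences of 0.81 (0 h, SE 0.29, adjusted p = 0.116; 0.27 and 1.35 on slides 1 and 2), 0.53 (6 h, adjusted p = 0.270) and 0.49 (48 h, adjusted p = 0.322) did not pass. A second BAX probe, ILMN_1683300 (NM_004324), had 481 to 929, and its arrays of both lines overlapped at every time (log2 differences of -0.13, 0.20 and -0.16, SE 0.34). The BAX probes had r = 0.281. ILMN_2258383 of BAX was detected on 1 array and was not tested.

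BAK1, the effector that resides at mitochondria, had 497 and 711 in BHLHE40-KD cells at 0 h, against 463 and 897 in LM-EV cells. After 6 h it had 437 and 594 in BHLHE40-KD cells, against 403 and 607 in LM-EV cells, and at 48 h 427 and 791 in BHLHE40-KD cells, against 354 and 558 in LM-EV cells. As for BCL2A1, slide 2 was the higher one in each group, and the lines overlapped at each time. The log2 difference of BAK1 was -0.12 at 0 h, 0.04 at 6 h and 0.39 (48 h, SE 0.16, adjusted p = 0.172 at 48 h), and none passed. With hypoxia its log2 change was -0.22 at 6 h and -0.03 at 48 h in BHLHE40-KD cells, and -0.38 and -0.54 in LM-EV cells (adjusted p = 0.157 for the last).

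PMAIP1, known as NOXA, was lower in untreated BHLHE40-KD cells by both of its probes. Probe ILMN_2098446 had 3761 and 4456 in BHLHE40-KD cells at 0 h, 6050 and 8343 at 6 h and 5089 and 5396 at 48 h. The LM-EV arrays had 6907 and 11573 at 0 h, 8280 and 11252 at 6 h and 5515 and 8358 at 48 h. The lines were apart at 0 h, overlapped at 6 h, and were apart by little at 48 h. The log2 difference was -1.13 (0 h, SE 0.18, adjusted p = 0.00995; -0.88 and -1.38 on slides 1 and 2), -0.44 (6 h, adjusted p = 0.146) and -0.37 at 48 h.

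The other PMAIP1 probe, ILMN_1689525, had 686 and 791 in BHLHE40-KD cells at 0 h, 1290 and 1666 at 6 h and 1144 and 1385 at 48 h. LM-EV cells had 1391 and 2892 at 0 h, 1571 and 2682 at 6 h and 1485 and 1903 at 48 h. Both probes were lower in BHLHE40-KD cells on all 6 pairs of arrays, and they followed each other (r = 0.940). The log2 difference was -1.44 (0 h, SE 0.22, adjusted p = 0.00966; -1.02 and -1.87 on slides 1 and 2). Without the slide as a block neither PMAIP1 probe passed at 0 h (adjusted p = 0.0627 for ILMN_2098446 and 0.0501 for ILMN_1689525), nor did either without LM-EV 0 h replicate 2 or BHLHE40-KD 0 h replicate 2 (up to 0.0783 and 0.0674).

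With hypoxia PMAIP1 had in BHLHE40-KD cells a log2 change of 0.80 (ILMN_2098446) and 0.99 (ILMN_1689525) at 6 h, on both slides, but neither passed (adjusted p = 0.0674 and 0.0692). In LM-EV cells the changes at 6 h were 0.11 and 0.03. The difference between the lines in the change was itself tested: it was 0.68 and 0.96 at 6 h and 0.75 and 1.03 at 48 h for the PMAIP1 probes (unadjusted p = 0.0278, 0.0185, 0.0187 and 0.0136), and after adjustment none passed (adjusted p of 0.688 to 0.799).

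BID links death receptors to mitochondria once caspase 8 has cut it. Probe ILMN_2372413 had 867 and 811 in BHLHE40-KD cells at 0 h, 580 and 572 at 6 h and 519 and 383 at 48 h. In LM-EV cells it had 736 and 728 at 0 h, 517 and 439 at 6 h and 540 and 546 at 48 h. Every hypoxia array of either line lay below the untreated arrays of that line. BID fell in BHLHE40-KD cells at 48 h against 0 h by a log2 change of -0.91 (SE 0.15, adjusted p = 0.0343; -0.74 and -1.08 on slides 1 and 2), while the change of -0.54 (6 h, adjusted p = 0.111) did not pass. In LM-EV cells the log2 change was -0.62 (6 h, adjusted p = 0.136) and -0.43 (48 h, adjusted p = 0.197), and neither passed. The call for BID was lost without the slide as a block (adjusted p = 0.0532), with no filter on dim probes (0.0561) and in each of the 12 fits that left out 1 array (0.0553 to 0.174).

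Probe ILMN_1763386 of BID followed it (r = 0.889). It had 2216 and 1509 in BHLHE40-KD cells at 0 h, 1295 and 1416 at 6 h and 1325 and 964 at 48 h. The LM-EV arrays had 2014 and 1595 at 0 h, 1211 and 1182 at 6 h and 1531 and 1409 at 48 h. Hypoxia arrays again lay below the untreated arrays of their line, with a largest log2 change of -0.69 in BHLHE40-KD cells at 48 h (adjusted p = 0.103), which did not pass. The remaining BID probe, ILMN_2259495, was detected on 9 arrays (20.3 to 101), had an SE of 0.72 and passed nowhere. Between the lines no BID probe passed at any time.

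BCL2L11, or BIM, which follows loss of growth factor and attachment signals, was close to the detection limit. Probe ILMN_2359627 had 67.6 and 62.0 in BHLHE40-KD cells at 0 h, 101 and 122 at 6 h and 110 and 79.0 at 48 h. LM-EV cells had 62.1 and 69.3 at 0 h, 136 and 90.9 at 6 h and 157 and 96.0 at 48 h. Every hypoxia array lay above every untreated array of either line. The log2 change was 0.78 and 0.53 at 6 h and 48 h in BHLHE40-KD cells, and 0.76 and 0.90 in LM-EV cells (SE 0.26), and none passed (adjusted p of 0.148 to 0.310). Between the lines BCL2L11 differed by -0.02, -0.0006 and -0.40 at 0 h, 6 h and 48 h, and none passed. The other BCL2L11 probes, ILMN_1766541 and ILMN_1774997, were detected on 2 arrays and on none and were not tested.

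BBC3, or PUMA, had 302 and 497 in BHLHE40-KD cells at 0 h, against 184 and 339 in LM-EV cells. The 6 h arrays had 384 and 546 in BHLHE40-KD cells, against 338 and 437 in LM-EV cells, and at 48 h 355 and 290 in BHLHE40-KD cells, against 294 and 281 in LM-EV cells. Its signal was higher in BHLHE40-KD cells on all 6 pairs of arrays, but arrays of the lines overlapped at each time across slides. The log2 difference of BBC3 was 0.63 (0 h, SE 0.29, adjusted p = 0.202), 0.25 at 6 h and 0.16 at 48 h, and none passed.

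**Figure D4:**
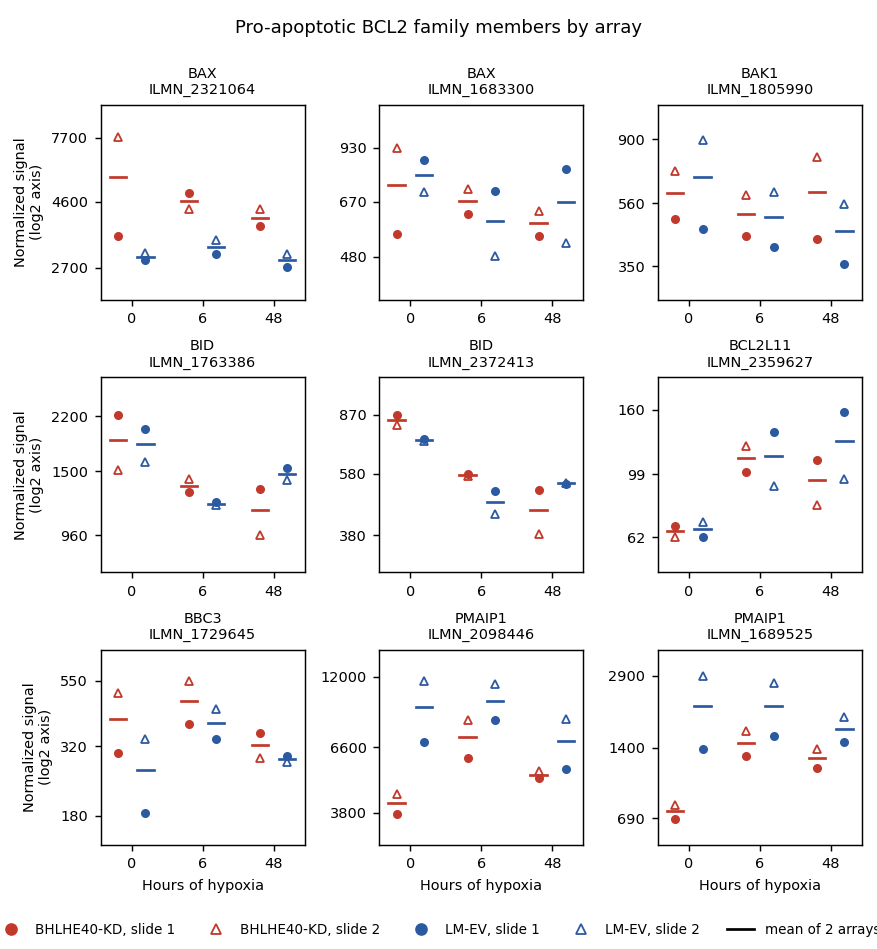
Normalized signal (log2 axis, a scale of its own in each panel) of the pro-apoptotic member probes detected on all 12 arrays, by hours of hypoxia, with BHLHE40-KD in red left of LM-EV in blue. Filled circles are slide 1, open triangles slide 2 and lines the mean of 2 arrays, and PMAIP1 shows both BHLHE40-KD arrays at 0 h (3761 and 4456) below both LM-EV arrays (6907 and 11573).

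With hypoxia, 2 of the 18 member probes passed in 1 or more of 4 comparisons, against 4.21% of all tested probes: MCL1 ILMN_1803988, which rose, and BID ILMN_2372413, which fell. In BHLHE40-KD cells 1 member probe passed at 6 h against 0 h (2.46% of all tested probes, 0.941% higher), and 2 passed at 48 h, 1 higher and 1 lower (2.24%, with 1.13% higher and 1.11% lower). By that probe MCL1 rose by a log2 change of 1.27 (6 h, SE 0.15, adjusted p = 0.0143; 1.46 and 1.08 on slides 1 and 2) and 0.98 (48 h, adjusted p = 0.0303; 1.21 and 0.74). In LM-EV cells no member probe passed by limma at 6 h (0.149% of all tested probes) or at 48 h (0.27%). At each time 6 of the 18 had an unadjusted p under 0.05, as did 3387 of the 22207 tested probes at 6 h and 3956 at 48 h. The changes of this MCL1 probe in LM-EV cells were 1.05 (6 h, adjusted p = 0.0588) and 0.92 (48 h, adjusted p = 0.0619). The second MCL1 probe, ILMN_1756806, had changes of 0.31 (6 h, adjusted p = 0.234) and 0.60 (48 h, adjusted p = 0.0563) in BHLHE40-KD cells and -0.11 and 0.17 in LM-EV cells, and none passed (r = 0.656 between the MCL1 probes). Without any 1 of the BHLHE40-KD arrays at 0 h or 6 h, MCL1 ILMN_1803988 did not pass at 6 h (up to 0.0996). At 48 h it did not pass without the slide as a block (0.0511) or without any 1 array other than BHLHE40-KD 6 h replicate 1 or 2 (up to 0.125).

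The difference in response between the lines passed for none of the 18 member probes by limma at 6 h or at 48 h. Of all tested probes 0.0225% passed at each time. An unadjusted p under 0.05 was found for 3 of the 18 at each time, and for 1300 of the 22207 tested probes at 6 h and 1401 at 48 h. The 3 member probes were both PMAIP1 probes and MCL1 ILMN_1756806. For that MCL1 probe the change was larger in BHLHE40-KD cells by 0.43 on the log2 scale at both times (95% CI 0.02 to 0.84 at each, adjusted p = 0.837 and 0.782).

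**Figure D5:**
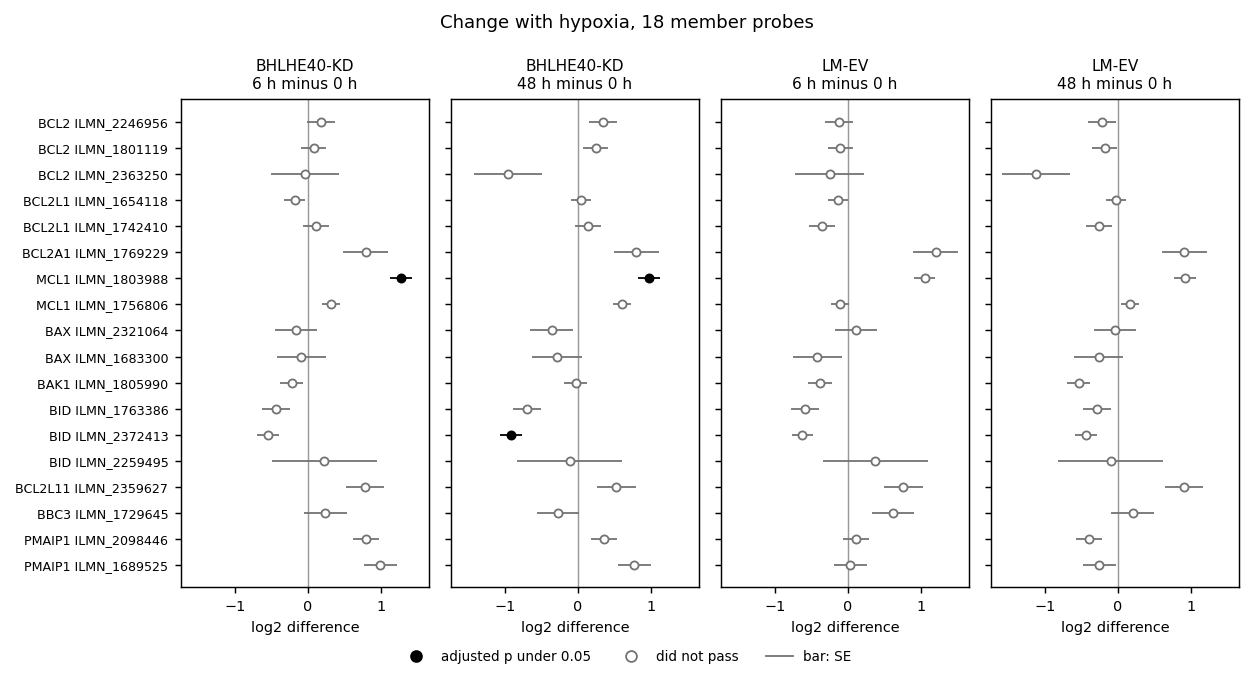
Change with hypoxia (log2, x axis) of the 18 tested member probes (rows) at 6 h and 48 h against 0 h, in BHLHE40-KD (left panels) and LM-EV cells (right panels), with bars of 1 SE and filled points for an adjusted p under 0.05. MCL1 ILMN_1803988 lies between 0.92 and 1.27 in all 4 panels, and BID ILMN_2372413 between -0.91 and -0.43.

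The study called a gene altered where it changed by 1.5-fold or more in both independent experiments. By that rule, taken per slide, 5 member probes differed between the lines at some time (28.1% of all tested probes did so) and 7 changed with hypoxia in some comparison (23.5%). Between the lines these were both main BCL2 probes and both PMAIP1 probes, lower in BHLHE40-KD cells, and BCL2L1 ILMN_1742410, higher in them. With hypoxia they were MCL1 ILMN_1803988, BCL2A1 and both PMAIP1 probes, which were higher, and BCL2 ILMN_2363250, BID ILMN_1763386 and BID ILMN_2372413, which were lower. BCL2 ILMN_2363250 met the rule only in LM-EV cells at 48 h, on values below detection, and the bound on its fold there was 1.14. MCL1 met the rule at 6 h and 48 h in both lines, PMAIP1 only in BHLHE40-KD cells and BCL2A1 only in LM-EV cells. The test of the difference in response called neither PMAIP1 nor BCL2A1.

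Other genes of the pathway were read from 4 lists. Of 12 further BCL2 family genes 9 were tested with 15 probes, and 3 probes passed between the lines (20.7% of all tested probes did so) and 2 with hypoxia (4.21%). BMF, a BH3-only gene tied to the cytoskeleton, had 143 and 66.2 in BHLHE40-KD cells at 0 h by probe ILMN_1695354, which was not well above background in LM-EV cells. The bounds on the difference of this probe were at least 2.30-fold higher at 0 h (adjusted p = 0.0110), with 1.20-fold as the bound at 6 h (adjusted p = 0.0282), where the lowest detected signal stands for undetected arrays. In BHLHE40-KD cells at 48 h its signal was at least 2.07-fold lower than at 0 h (adjusted p = 0.0332). A second BMF probe, ILMN_2308338, was detected on 11 arrays and had 139 and 203 in BHLHE40-KD cells at 0 h, against 82.0 and 74.2 in LM-EV cells. It had log2 differences of 1.11 (0 h, adjusted p = 0.0588) and 0.83 at 6 h, which did not pass.

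BIK, a BH3-only gene of the endoplasmic reticulum, had 169 and 185 in BHLHE40-KD cells at 0 h, against 102 and 96.2 in LM-EV cells. Its log2 difference was 0.84 (0 h, SE 0.19, adjusted p = 0.0307), and 1.06 (48 h, with adjusted p = 0.0155). At 6 h it was 0.33 (adjusted p = 0.288), which did not pass, and the lines overlapped. BAD, a BH3-only protein switched off by growth factor signalling, was lower in BHLHE40-KD cells at 0 h by ILMN_1738652 (-0.60, SE 0.15, adjusted p = 0.0436). The other BAD probes had -0.99 (adjusted p = 0.0762) and -0.25 at 0 h and did not pass. BNIP3, a hypoxia-inducible gene of mitophagy, rose at 48 h in BHLHE40-KD cells by 0.95 (SE 0.17, adjusted p = 0.0420), and its change in LM-EV cells was 0.85 (adjusted p = 0.0787).

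Of 13 apoptosome and caspase genes 10 were tested with 20 probes, and 1 probe passed between the lines (20.7% of all tested probes) and none with hypoxia (4.21%). CASP8, the initiator caspase of death receptors, exceeded the LM-EV level at least 1.76-fold in BHLHE40-KD cells at 48 h by ILMN_1673757. This probe was not well above background in LM-EV cells at that time. Its adjusted p of 0.0449 belongs to the log2 difference of 1.51, which uses LM-EV values below detection, and not to this bound. The other CASP8 probe, ILMN_2377733, had 83.1 and 80.8 in BHLHE40-KD cells at 48 h, against 27.5 and 67.0 in LM-EV cells, and did not pass. Of 9 genes of inhibitors of apoptosis and the death receptor complex 7 were tested with 10 probes, of which 2 passed between the lines and 1 with hypoxia. CFLAR, which blocks caspase 8, was lower in BHLHE40-KD cells at 48 h (log2 difference -0.66, adjusted p = 0.0299). XIAP, which binds active caspases, was higher at 48 h (0.80, adjusted p = 0.0469). FADD, an adaptor of death receptors, fell in BHLHE40-KD cells at 6 h by 0.76 on the log2 scale (adjusted p = 0.0355).

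Of 17 genes that act on the members 14 were tested with 24 probes, and 3 probes passed between the lines (20.7% of all tested probes) and 1 with hypoxia (4.21%). HUWE1, a ubiquitin ligase of MCL1, was higher in BHLHE40-KD cells by a log2 difference of 0.82 (0 h, adjusted p = 0.0464), 1.00 (6 h, adjusted p = 0.0254) and 1.18 (48 h, adjusted p = 0.0161). DDIT3, the stress factor CHOP, was higher by 0.70 (0 h, adjusted p = 0.0112) and 0.52 (48 h, adjusted p = 0.0305). At 6 h the DDIT3 difference was 0.33 (adjusted p = 0.103), which did not pass. Its arrays of both lines overlapped at 6 h and at 48 h. FOXO1, a factor that can activate BCL2L11 and BBC3, was lower at 48 h by a log2 difference of -0.87 (adjusted p = 0.0228). ATF3, a stress-induced partner of ATF4, rose in BHLHE40-KD cells at 6 h by 1.36 (SE 0.14, adjusted p = 0.0122), and its change in LM-EV cells was 0.98 (adjusted p = 0.0664).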

How the data were processed

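RNA of 12 cultures of LM-EV and BHLHE40-KD cells was measured on Illumina HT-12 arrays, 2 per group. The normalized intensities were made by the authors in GenomeStudio (no version is given in the sources used here) by background subtraction and quantile normalization, and 38.7% of them lie under the floor of 16 set here. Detection p-values were deposited beside average bead intensities, which were used only as a check. By rank the bead columns of 7 arrays followed the normalized values of their array and those of 5 did not. These 5 were all on slide 2, and 3 of them were equal to columns of slide 1 arrays. The bead columns were therefore not used for results. The detection p-values followed the normalized values on every array (rank correlation of -0.983 or stronger). Groups came from the sample labels. Slides were taken as the 2 repeats of the experiment because each carried all groups once, which the labels do not state.

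Tested were probes that both arrays of some group detected at p under 0.05 (22207 of 47302). Values were set to at least 16, put on the log2 scale and fitted (limma 3.58.1, R 4.3.3) using a term per group and a block for the slide (residual degrees of freedom 5, prior 2.22), for 9 comparisons: the lines at 3 times, hypoxia in each line at 6 h and 48 h, and the difference in response at both times. P values were adjusted by Benjamini-Hochberg within a comparison. They measure the spread between arrays of 1 knockdown and 1 control line, and the number of arrays limits the precision: the median SE was 0.21, and 0.29 for a difference in response. Arrays of the same slide had deviations from the group means that correlated by -0.008 to 0.256 (median 0.142, over 0.1 in 12 of 15 pairs of groups). Probes were named by the platform annotation (30105 probes with 1 symbol, 8 with several, 17189 with none). For a probe that a group did not detect at all, the fold is a bound against the lowest detected signal. Named were all member probes, BHLHE40, and up to 4 genes per list with a probe past the threshold in at least 1 of 7 comparisons, by the smallest adjusted p. For members whose brightest probe passed and was detected on all arrays, the 3 genes with the highest correlation were named. The members and lists were chosen with earlier results of these data known. Promoter sequences are those of RefSeq, matched by symbol. A search of the member proteins for the BH3 core was not run.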

Additional observations from a re-analysis of the deposited data

How the results depend on the processing

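Of the 13 called differences of the members, refitted under the alternatives, all kept their direction in 266 fits and 88 of these fits did not pass. For 37 further differences that did not pass, 59 of 758 such fits passed. The count of member probes past the threshold between the lines was 7, 2 with no replicate block, 3 with 1 probe per gene (of 10 genes), and 1 to 8 when 1 array was left out. The count with hypoxia was 2, 1 with no replicate block, 4 with a floor of 64, 7 with an added constant of 32, 7 with a detection p under 0.01 on all 12 arrays, 7 with a mean-variance trend, and 0 to 1 when 1 array was left out. The count for the difference in response was 0 in every one of these fits. By the fold rule of the study 10 member probes passed in at least 1 of 7 comparisons, and 3 with 2-fold in place of 1.5-fold. By the 1.5-fold rule 28.1% of all tested probes passed between the lines at some time and 23.5% with hypoxia in some comparison. A share of all tested probes over the 7 comparisons together, or for 2-fold, is not given. With no replicate block the BCL2 probes passed at 0 h and 6 h and MCL1 ILMN_1803988 at 6 h of hypoxia in BHLHE40-KD cells (adjusted p = 0.0287), and no other member did. Under the mean-variance trend MCL1 ILMN_1803988 also passed in LM-EV cells (adjusted p = 0.000579 at 6 h and 0.00100 at 48 h). It did so too with a floor of 64 (0.0293 and 0.0321), the added constant, the stricter detection and 1 probe per gene, but not under the remaining settings. BAX ILMN_2321064 passed at 0 h between the lines under the trend (0.0169), the added constant (0.0280) and the stricter detection (0.0471). Not all calls gained under a setting are named here. Over all tested probes the counts at 0 h, 6 h and 48 h between the lines were 2806, 2981 and 2502, and 1910, 2050 and 1736 with no replicate block. For hypoxia they were 546 and 497 in BHLHE40-KD cells, with a range over settings of 225 to 1338 and 245 to 1663, and 33 and 60 in LM-EV cells, with 0 to 484 and 49 to 999. For the difference in response they were 5 and 5, with 0 to 47 and 0 to 27. When 1 array was left out, they were 630 to 2501, 847 to 2952 and 727 to 2401 between the lines, 1 to 349 and 5 to 306 for hypoxia in BHLHE40-KD cells, 0 and 0 to 14 in LM-EV cells, and 0 and 0 to 2 for the difference in response. The cause of these shifts was not tested. For BCL2 ILMN_2363250 the floor of 64 gave no value in LM-EV cells at 48 h, since every LM-EV array was at the floor. Normalization from bead signals was not run, because 5 of the bead columns did not follow their arrays.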

Other observations

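For the members whose brightest probe passed and was detected on all arrays (BCL2, MCL1 and PMAIP1), the genes with the most similar profile over the 12 slide-centred arrays were sought among 12335 other genes, 1 probe per gene. These correlations come from the best of many genes over arrays that share 2 lines and 3 times, and they are given as descriptions. For BCL2 they were SASH1 (r = 0.979), AFAP1L1 (0.978) and PSTPIP2 (0.973). For MCL1 they were ANGEL1 (r = 0.983), TXNIP (0.966) and METRNL (0.962). For PMAIP1 they were STK17B (r = 0.964), CNTRL (0.946) and a probe annotated to MIR302C (0.936).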
